A study of Mus musculus with 15 samples.

Results

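The cytochrome P450 genes of the mouse colon are described here, across 3 Tert genotypes with and without chemical colitis. The members are the rows of the deposited log2 CPM table whose symbol is Cyp followed by a digit, which gave 52 of 17531 rows. All 52 also had counts and passed the expression filter of the test. Another 67 Cyp symbols stood only in the larger count table and were too low to test. Colon came from mice labelled TERT-/- (KO), TERTVAA (VAA) or TERT+/+ (WT), aged 8 to 12 weeks. Tert is the catalytic protein of telomerase, and the labels call the VAA mouse enzymatically inactive. Each genotype had 3 libraries from mice given DSS (dextran sulfate sodium, which damages the colon lining and causes colitis) and 2 from untreated mice, 15 in all. The mice drank 3% DSS over 4 days and then water alone over another 4, with tissue collected on day 8. Total RNA of colon tissue was sequenced, so epithelium, muscle, stroma and immune cells are mixed in each library. Strain, sex, the number of generations without telomerase and the construction of either allele are not stated in the labels.

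Cytochromes P450 are heme enzymes that insert 1 oxygen atom into a lipid, drug or toxicant, with electrons from the reductase Por or, in mitochondria, from ferredoxin. Families Cyp1 to Cyp3 and part of Cyp4 handle drugs, plant compounds and fatty acids, and some of these turn arachidonic acid into epoxy and hydroxy lipids that act on vessels and leukocytes. Others have fixed tasks in the making or breaking of cholesterol, bile acids, steroid hormones, vitamin D and retinoic acid. In the gut many of the first kind sit in the absorptive cells of the surface epithelium.

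Library totals ran from 10561247 to 17541584 counts, and VAA DSS replicate 3 was the shallowest. Tert itself had 0 or 1 counts in the 5 KO libraries, 7 to 29 in the VAA libraries and 23 to 40 in the WT libraries. KO untreated replicate 2 and WT untreated replicate 2 were male by the Y-linked gene Ddx3y, with 868 and 914 counts against 5 to 20 elsewhere, so every DSS library was female. The labels list separate samples but not separate animals, so a p-value reflects sample-to-sample spread that may be technical. Colonocyte markers, 18 of 18 detected, summed to 10400 to 17300 CPM (counts scaled to library size). Hepatocyte markers, of which 6 of 10 were tested, summed to 122 to 287 CPM. A fold change in bulk tissue cannot tell fewer cells of a type from less RNA per cell.

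Members that share close relatives lie in gene clusters, given here on GRCm38 (mm10) from GENCODE. Of the 7 Cyp2c genes, 6 lie on chromosome 19 from Cyp2c55 at chr19:39007019-39042693 to Cyp2c69 at chr19:39842814-39886799, and Cyp2c44 lies further along that chromosome in RefSeq. The Cyp2d genes lie on chromosome 15 from 82370527 to 82794294, most Cyp4f genes on chromosome 17 and the Cyp2j genes on chromosome 4. Near-identical copies limit what a count of 1 gene means. Of the 31-base words in their transcripts, Cyp2c40, Cyp2c67, Cyp2c68 and Cyp2c69 share 72.6%, 67.6%, 62% and 64.9% with transcripts of other genes, and Cyp2d10 and Cyp2d11 share 50.2% and 58.5%. For Cyp2c55 the share is 3.41%. Values of the first 6 genes are therefore uncertain as values of single genes, and sums over the Cyp2c set of 4 and the Cyp2d pair are given as well.

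The promoter of Cyp2c55 is shown because this gene was the most abundant member untreated and fell furthest in 2 of the 3 genotypes. The sequence is the 250 bases before its RefSeq start at chr19:39006769-39007018, plus strand, GRCm38.p6, and the capitals mark a TATAAA.
Cyp2c55: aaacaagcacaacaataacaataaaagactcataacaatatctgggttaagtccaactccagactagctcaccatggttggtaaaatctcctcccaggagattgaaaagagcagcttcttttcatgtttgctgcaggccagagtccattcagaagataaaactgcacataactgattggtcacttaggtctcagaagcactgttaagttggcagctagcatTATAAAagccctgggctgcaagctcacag

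Another 5 members of the same cluster carry CAAAGTCCA, a core motif of the nuclear receptor HNF4, in the same 250 bases. Windows of 49 bases around it are shown because these neighbouring genes share the motif. Capitals mark the motif, each window is on the strand of its gene, and the places in the same order are chr19:39812831-39812879, chr19:39060870-39060918, chr19:39649139-39649187, chr19:39741150-39741198 and chr19:39886816-39886864 (Cyp2c65 on the plus strand, the others on the minus strand, GRCm38.p6).
Cyp2c40: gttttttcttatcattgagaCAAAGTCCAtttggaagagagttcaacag
Cyp2c65: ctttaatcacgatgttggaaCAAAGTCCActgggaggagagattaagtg
Cyp2c67: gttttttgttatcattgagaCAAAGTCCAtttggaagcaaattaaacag
Cyp2c68: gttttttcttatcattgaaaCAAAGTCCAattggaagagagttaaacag
Cyp2c69: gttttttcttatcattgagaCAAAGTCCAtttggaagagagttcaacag
The Cyp2c40 and Cyp2c69 windows differ at 0 of 49 bases, Cyp2c40 and Cyp2c68 at 3, and Cyp2c65 differs from the others at 17 to 22. Searched on both strands, this motif stood in 5 of 45 promoters of the 37 members that RefSeq lists with one (11.1%), against 0.384% of 32851 mouse promoters. These 5 lie in the same gene cluster, and some members have several promoter entries, so the entries are not independent. TATAAA was in 28.9% of the members' promoters and 12.4% of all. GCGTG, the core that the aryl hydrocarbon receptor binds, was in 22.2% and 28.2%. No motif overlapped another in the sequences printed, and a match is a description of letters only.

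Cyp2c55 was the leading member of untreated colon. Per kilobase of exon, Cyp2c55 stood first in every untreated group at 306 CPM per kb in KO, 127 in VAA and 234 in WT. Cyp2d34 followed at 85.6, 86.6 and 83.5 CPM per kb, and Cyp2c68 came next at 58.8, 42.4 and 49.5. After DSS the order was different: Cyp2d34 led in KO, VAA and WT at 62.7, 47.3 and 40.5 CPM per kb, followed by the sterol enzyme gene Cyp51 at 46.6, 28.5 and 33.8. Cyp2c55 took 0.202% to 0.475% of the members' summed CPM in KO DSS libraries, against 39.5% and 28.4% in KO untreated libraries. In VAA it took 0.0983% to 1.34% under DSS, against 15.7% and 19.5% untreated, and in WT 0.15% to 2.58%, against 24.5% and 32.4%.

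Summed over subfamilies, the DSS mean as a share of the untreated mean differed widely. The 7 Cyp2c genes stood at 8.82% in KO, 3.77% in VAA and 5.39% in WT. The 10 Cyp2d genes stood at 65.2%, 43.7% and 40.3%, and Cyp3a13 at 74.2%, 33% and 36.5%. The 7 Cyp4f genes stood at 101%, 82.1% and 103%, and the 4 Cyp2j genes at 107%, 104% and 106%. Cyp51 stood at 225%, 138% and 148%. Without Cyp2c55 the other 51 members summed to 87.5% in KO, 56.5% in VAA and 60.9% in WT. These sums are descriptions and were not tested.

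**Figure D1:**
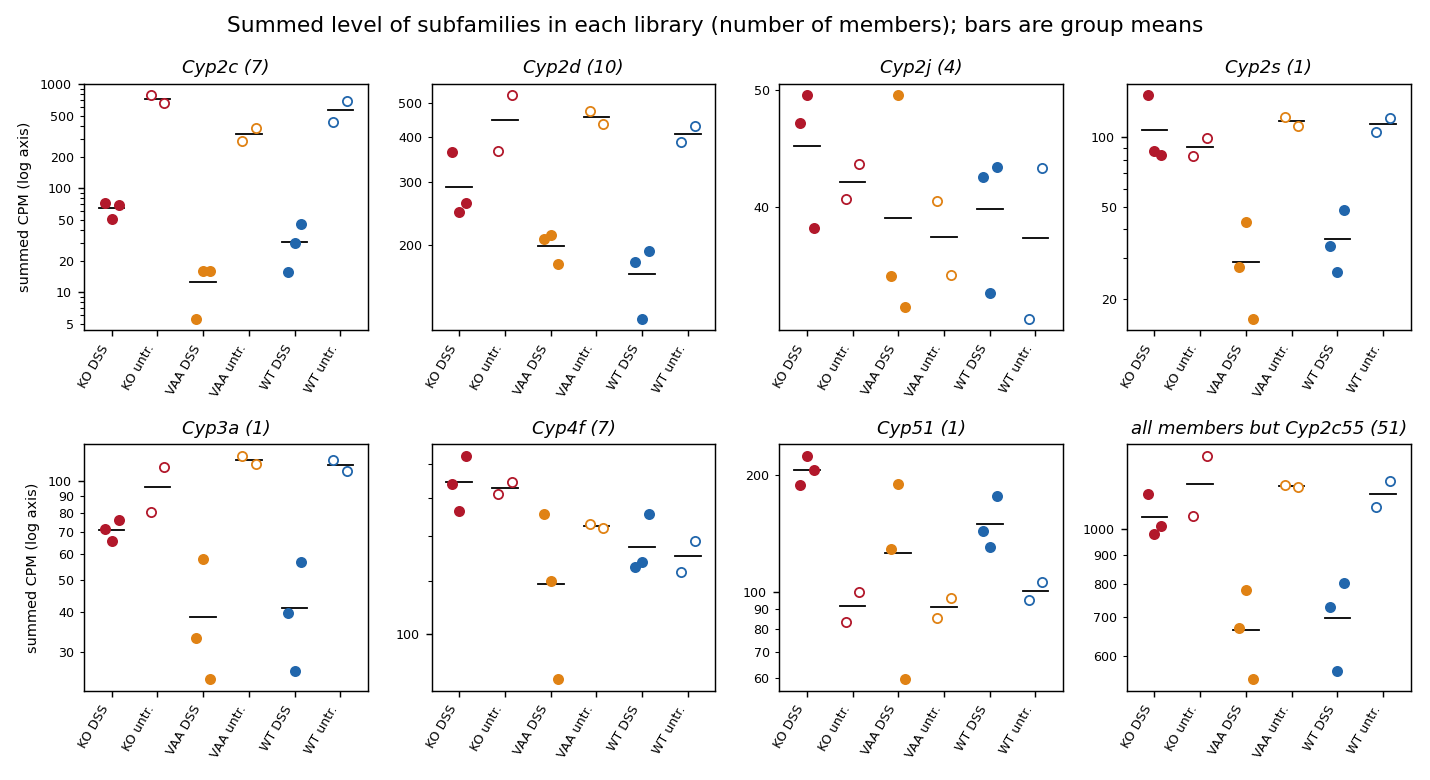
Summed CPM of 7 subfamilies or single genes, and of all members but Cyp2c55, in each of 15 libraries on a log axis; filled points are DSS libraries, open points untreated ones, and bars are group means. Cyp2c sums lie between 5.59 and 72.2 CPM in the 9 DSS libraries and between 285 and 791 CPM in the 6 untreated ones, whereas Cyp2j and Cyp4f sums overlap between treatments.

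DSS against untreated colon, averaged over the genotypes, asked which P450 genes changed in colitis. By edgeR's quasi-likelihood test at a Benjamini-Hochberg adjusted p under 0.05 over 17477 genes, 28 members were lower and 4 were higher. Of all genes tested, 20% were lower and 22.5% higher. The members' median log2 fold change was -0.74, against 0.00957 over all genes. Leaving out each library in turn gave 27 to 36 called members. Within KO, 8 members fell and 2 rose (all genes: 5.06% and 5.59%), with a member median of -0.41. Within VAA, 16 fell and 3 rose (9.54% and 10.9%), with a median of -0.70. Within WT, 24 fell and 1 rose (12.5% and 14.1%), with a median of -1.01. The WT count of 25 was 16 without WT untreated replicate 1 and 13 without replicate 2, and the VAA count of 19 was 12 without VAA untreated replicate 1. The KO count of 10 was 5 with any of KO untreated replicate 1, KO untreated replicate 2 or KO DSS replicate 3 left out. It was 6 when KO DSS replicate 2 was left out, and 16 when VAA DSS replicate 3 was. Both male libraries are untreated, so leaving them out keeps 1 untreated library in KO and 1 in WT, but 2 in VAA. Without both male libraries the counts were 4 in KO, 19 in VAA and 14 in WT. The calls lost without them were Cyp2d22, Cyp39a1, Cyp4f13, Cyp4f18, Cyp4v3 and Cyp51 in KO, and Cyp27a1, Cyp2c40, Cyp2c44, Cyp2c68, Cyp2d40, Cyp2d41-ps, Cyp2j5, Cyp39a1, Cyp4f16, Cyp4f17 and Cyp4v3 in WT. Averaged calls lost without them were Cyp2d11, Cyp2d37-ps, Cyp2d40, Cyp2d41-ps, Cyp2j5 and Cyp4f40.

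Cyp2c55, Cyp2c69, Cyp2d22, Cyp2f2, Cyp39a1 and Cyp4f13 fell and Cyp4f18 rose in each of the 3 genotypes. Another 10 members fell in VAA and WT and did not pass in KO: Cyp2c44, Cyp2c68, Cyp2d10, Cyp2d12, Cyp2d26, Cyp2d34, Cyp2s1, Cyp2w1, Cyp3a13 and Cyp4f16. For every called member the DSS libraries and the untreated libraries of that genotype did not overlap. Groups also failed to overlap for members that did not pass, 28 of 52 in KO, 31 in VAA and 37 in WT being apart in all (48.2%, 40.7% and 62.9% of all genes). The genotypes' effects come from separate libraries, and whether those of KO and of VAA differ from that of WT is tested further on. The DSS effects of KO and VAA were not tested against each other.

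**Figure D2:**
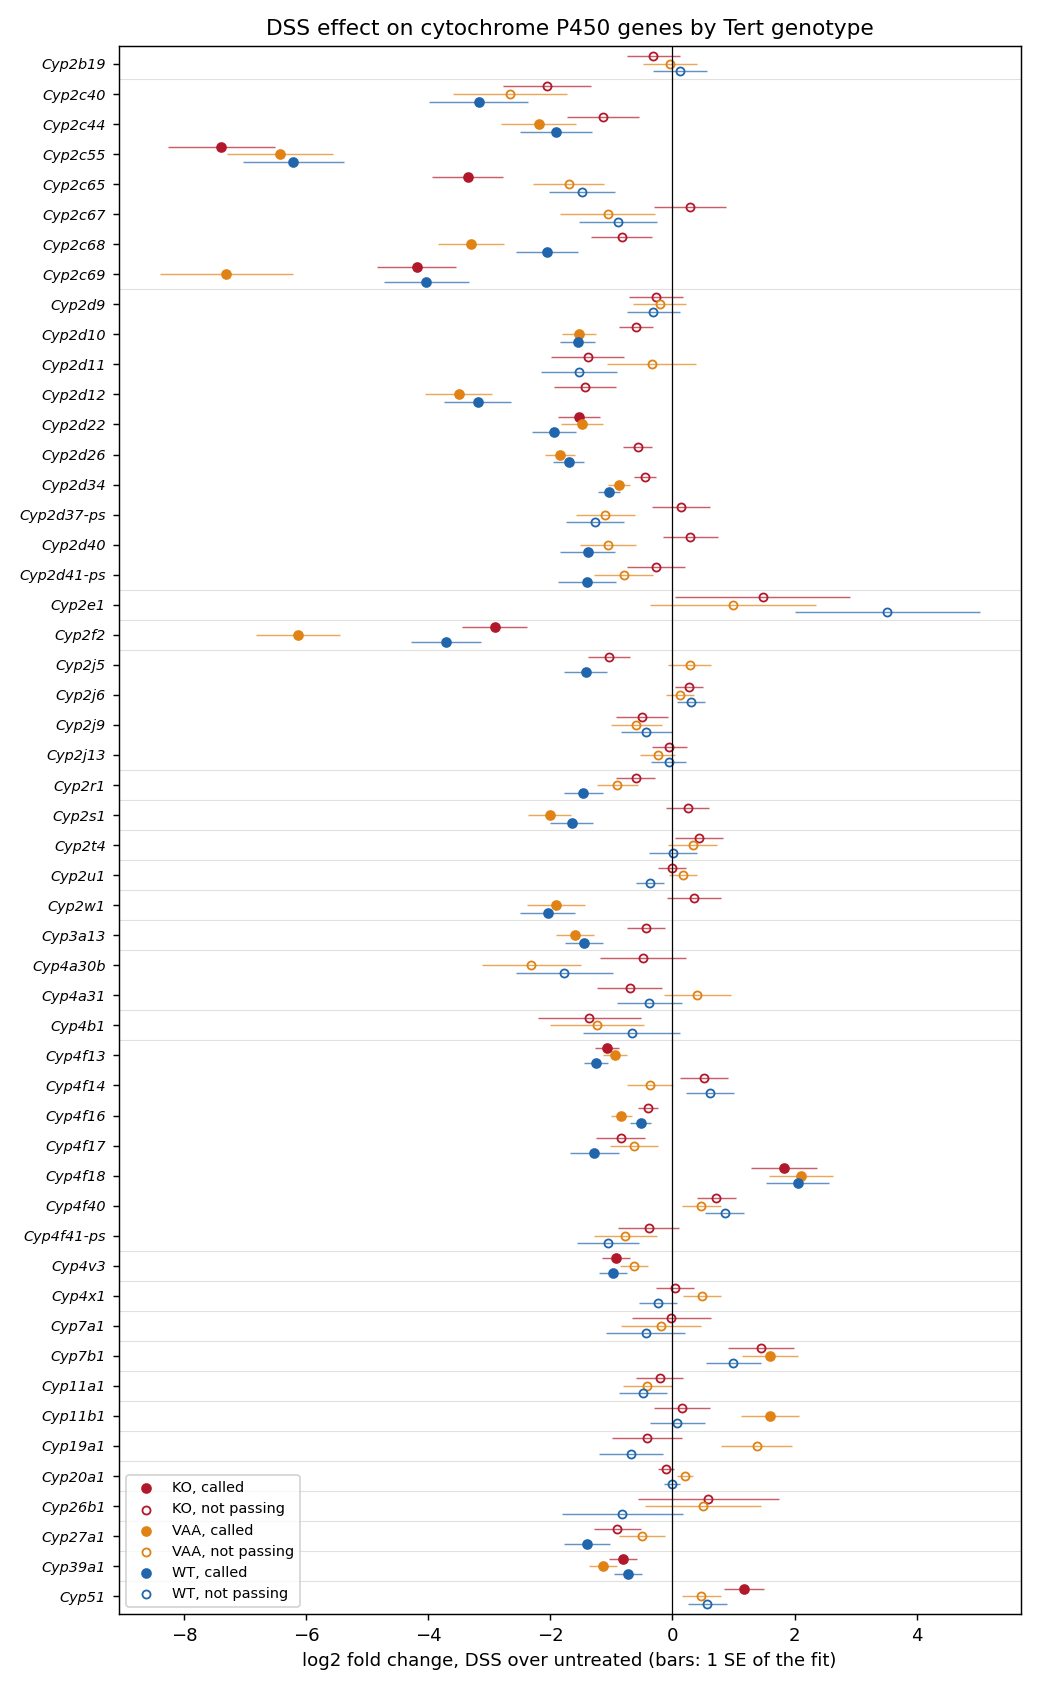
Log2 fold change of DSS over untreated for the 52 members in KO, VAA and WT, with bars of 1 SE of the fit; filled points passed the adjusted test. Cyp2c55, Cyp2c69 and Cyp2f2 lie furthest left in VAA and WT and Cyp2c55, Cyp2c69 and Cyp2c65 in KO, Cyp4f18 lies right of 0 in each genotype, and the red KO points of Cyp2d10, Cyp2d12, Cyp2d26, Cyp2d34, Cyp2s1 and Cyp2w1 lie nearer to 0 than the orange VAA and blue WT points; the VAA point of Cyp2c69 rests on 0 counts under DSS, so its place depends on the fit.

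Cyp2c genes encode mouse fatty acid and drug oxidases, and Cyp2c55, known from mouse colon, hydroxylates arachidonic and linoleic acid. Cyp2c55 had 5.5, 1.98 and 3.49 CPM in KO DSS libraries, against 688 and 532 CPM in KO untreated libraries. Libraries of VAA DSS held 0.662, 1.68 and 7.39 CPM, against 221 and 285 CPM untreated. WT DSS libraries had 1.09, 14.9 and 3.24 CPM, against 354 and 579 CPM untreated. The lowest untreated library thus lay far above the highest DSS library, WT DSS replicate 2. The log2 fold change of Cyp2c55 was -7.39 ± 0.88 (SE) in KO, -6.43 ± 0.87 in VAA and -6.21 ± 0.83 in WT (edgeR adjusted p = 0.00042, 0.00022 and 0.00023). These calls held in each of the 15 fits that leave out a library.

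Cyp2c69 had small counts and fell in each genotype. It had 3, 1 and 3 counts in KO DSS libraries against 67 and 31 untreated, and 1, 0 and 4 in WT DSS libraries against 31 and 27. In VAA DSS all 3 libraries held 0 counts, against 22 and 14 untreated. With a floor of 3 counts over the group, that makes Cyp2c69 at least 20.7-fold lower in VAA DSS. This bound allows for counting error in the DSS group only, not for the untreated spread or for reads shared with its near-copies. The fitted log2 fold change was -4.19 ± 0.65 (SE) in KO and -4.03 ± 0.69 in WT.

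Cyp2c68 supplied most reads of the 4 near-identical genes. It had 62.9, 45.5 and 62.8 CPM in KO DSS libraries, against 86.7 and 116 CPM untreated. VAA DSS libraries had 3.85, 12.4 and 5.76 CPM, against 56.6 and 89.6 CPM, and WT DSS libraries had 12.5, 9.65 and 39.1 CPM, against 75.9 and 94.9 CPM. The WT DSS values are spread, with replicate 3 apart from the other two. The log2 fold change was -3.30 ± 0.54 (SE) in VAA and -2.05 ± 0.51 in WT, where it was -1.88 with edgeR adjusted p = 0.066 without WT untreated replicate 2. In KO it was -0.83 ± 0.50 and did not pass. Summed with Cyp2c40, Cyp2c67 and Cyp2c69, these genes stood at 54.2% of untreated in KO, 10.1% in VAA and 23.3% in WT.

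Cyp2c40, an arachidonic acid hydroxylase of mouse gut, had 0.669 to 1.01 CPM in KO DSS libraries, 0.0602 to 0.289 in VAA DSS and 0 to 0.649 in WT DSS, against 2.65 and 4.14, 0.715 and 1.36, and 1.16 and 3.7 CPM in the untreated libraries of KO, VAA and WT. Averaged over genotypes its log2 fold change was -2.63 ± 0.48 (SE). Within single genotypes it passed in WT, where the call was lost without WT untreated replicate 2 (-2.11, edgeR adjusted p = 0.17). Cyp2c65, a related gene of mouse gut, had 0.93, 1.02 and 0.594 CPM in KO DSS libraries against 7.43 and 10.1 untreated, and fell by 3.35 ± 0.58 log2 units (edgeR adjusted p = 0.0039). In VAA DSS it had 0.722, 0.809 and 2.21 CPM against 3.5 and 4.26, and in WT DSS 1.6, 4.6 and 1.24 CPM against 4.24 and 9.42. Those changes of -1.70 ± 0.58 and -1.48 ± 0.54 did not pass (edgeR adjusted p = 0.055 and 0.058). Of its 31-base words 33.5% are shared with Cyp2c66, which is not among the members. Cyp2c44, a mouse epoxygenase listed by RefSeq as Cyp2c23, averaged 0.654, 0.407 and 0.499 CPM under DSS in KO, VAA and WT, against 1.45, 1.83 and 1.89 CPM untreated, with an averaged log2 fold change of -1.74 ± 0.34. Its WT call was lost at -0.58 (edgeR adjusted p = 0.58) without WT untreated replicate 2, and it was also lost without WT DSS replicate 1 or 3. Its VAA call was lost without VAA untreated replicate 1 or 2 or VAA DSS replicate 1 (edgeR adjusted p of up to 0.086).

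Cyp2f2, which activates naphthalene in mouse lung, also fell in each genotype. KO DSS libraries had 2.25, 2.66 and 3.79 CPM, against 22 and 21.6 CPM untreated. Under DSS the VAA libraries had 0, 0.462 and 0.288 CPM, against 16.1 and 20 CPM, and WT DSS libraries had 2.04, 0.153 and 1.3 CPM, against 14.3 and 16.6 CPM. All 9 DSS libraries lay below all 6 untreated ones. The log2 fold change of Cyp2f2 was -2.91 ± 0.53 (SE) in KO, -6.13 ± 0.69 in VAA and -3.71 ± 0.57 in WT (edgeR adjusted p = 0.0052, 5.7e-05 and 0.00057).

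Cyp2s1, an epithelial P450 that dioxin induces in mouse, is known from surface tissues such as gut and airway. It had 153, 87.3 and 83.8 CPM in KO DSS libraries, against 82.9 and 99.6 CPM in KO untreated libraries, and these overlap. VAA libraries under DSS held 27.5, 42.9 and 16.4 CPM, against 123 and 112 CPM, and WT DSS libraries had 34, 26 and 48.6 CPM, against 106 and 122 CPM. Cyp2s1 fell by 2.01 ± 0.35 (SE) log2 units in VAA and 1.65 ± 0.35 in WT (edgeR adjusted p = 0.0012 and 0.0041), and the KO change was 0.25 ± 0.35. Cyp2w1, known from human fetal colon and colon tumours, was present at a far lower level. It had 2.64, 3.07 and 2.6 CPM in KO DSS libraries against 2.26 and 2.07 untreated. In VAA it had 0.722, 0.809 and 0.192 CPM under DSS against 1.64 and 2.98, and in WT 0.583, 0.613 and 1.3 CPM against 4.17 and 2.83. The fall was 1.91 ± 0.48 log2 units in VAA and 2.04 ± 0.45 in WT. Without VAA untreated replicate 2 the VAA value was -1.43 (edgeR adjusted p = 0.14), and without WT untreated replicate 1 the WT value was -1.72 (adjusted p = 0.067).

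Cyp3a13, a Cyp3a drug oxidase of the mouse intestine, had 71.3, 65.9 and 76.3 CPM in KO DSS libraries, against 80.9 and 111 CPM untreated. In VAA DSS the libraries had 33.1, 57.9 and 24.8 CPM, against 120 and 113 CPM, and WT DSS libraries 39.7, 26.3 and 56.7 CPM, against 116 and 108 CPM. It fell by 1.59 ± 0.31 (SE) log2 units in VAA and 1.45 ± 0.31 in WT, and the KO value of -0.43 ± 0.31 did not pass. Of the other Cyp3a genes none was among the members.

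The Cyp2d cluster, whose human relative CYP2D6 oxidizes many drugs, held 10 members, of which 9 were lower under DSS on average and 0 higher. Cyp2d9 was the exception, with an averaged log2 fold change of -0.26 ± 0.25 (SE). Cyp2d34, the most abundant, had 204, 149 and 169 CPM in KO DSS libraries against 201 and 274 untreated. It had 142, 137 and 115 CPM in VAA DSS libraries against 270 and 211, and 125, 91.5 and 120 CPM in WT DSS libraries against 227 and 237. Cyp2d34 fell by 0.87 ± 0.18 (SE) log2 units in VAA and 1.04 ± 0.18 in WT, and the VAA value was -0.68 (edgeR adjusted p = 0.074) without VAA untreated replicate 1.

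Cyp2d12 changed most within this cluster. It had 42.6, 17.8 and 14.7 CPM in KO DSS libraries against 43 and 91.9 untreated, with KO DSS replicate 1 close to the lower untreated library. Libraries of VAA DSS held 6.38, 10 and 3.84 CPM against 64.4 and 90.8, and WT DSS libraries 7, 2.3 and 9.26 CPM against 56.6 and 57.6. The log2 fold change was -3.50 ± 0.55 (SE) in VAA and -3.19 ± 0.55 in WT, and -1.43 ± 0.51 in KO, which did not pass (edgeR adjusted p = 0.093). Cyp2d26 had 7.98, 7.64 and 7.21 CPM in KO DSS libraries against 11.1 and 11.6 untreated, and 3.07, 2.77 and 2.88 CPM in VAA DSS libraries against 11.4 and 9.36. WT DSS libraries had 2.33, 2.53 and 4.42 CPM against 8.88 and 11.4, with replicate 3 above the other two. Cyp2d26 fell by 1.84 ± 0.25 log2 units in VAA and 1.70 ± 0.25 in WT, and the KO value was -0.57 ± 0.24 (edgeR adjusted p = 0.15).

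Cyp2d22, often taken as the mouse counterpart of CYP2D6, fell in all 3 genotypes. It had 16.4, 8.8 and 10.5 CPM in KO DSS libraries against 36.3 and 32.6, 7.94, 8.09 and 20.4 CPM in VAA DSS libraries against 37.6 and 29.3, and 8.89, 6.59 and 7.61 CPM in WT DSS libraries against 30.4 and 28.6. The log2 fold changes were -1.53 ± 0.35 (SE) in KO, -1.48 ± 0.35 in VAA and -1.94 ± 0.36 in WT. Without VAA untreated replicate 1 the VAA value was -1.29 (edgeR adjusted p = 0.088). The KO call was lost in 4 of 15 such fits, without KO untreated replicate 1 or 2 or KO DSS replicate 2 or 3 (highest edgeR adjusted p = 0.11). Cyp2d10 summed with its near-copy Cyp2d11 stood at 66% of untreated in KO, 34.6% in VAA and 34% in WT. Cyp2d10 itself had 47.5, 32.4 and 33.1 CPM in KO DSS libraries against 43.6 and 70.1, and 22.1, 24 and 13 CPM in VAA DSS libraries against 53.4 and 61.1. In WT it had 17.6, 11.9 and 19.2 CPM under DSS against 41.6 and 54.1. It fell by 1.53 ± 0.28 log2 units in VAA and 1.55 ± 0.29 in WT, and the KO value was -0.59 ± 0.28. Averaged calls for Cyp2d11, Cyp2d37-ps, Cyp2d40 and Cyp2d41-ps, low genes of which Cyp2d37-ps and Cyp2d41-ps are pseudogenes, were lost in 11, 10, 7 and 5 of 15 fits without a library.

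The Cyp4f genes, omega-hydroxylases that inactivate leukotrienes and oxidize long fatty acids, moved in both directions. Averaged over genotypes 2 of 7 rose and 3 fell, and the 7 include the pseudogene Cyp4f41-ps. Cyp4f18, which hydroxylates leukotriene B4 in mouse neutrophils, had 5.43, 2.25 and 4.9 CPM in KO DSS libraries, against 0.582 and 1.78 CPM untreated. VAA DSS libraries had 12.6, 8.38 and 7.01 CPM, against 1.14 and 3.23 CPM, and WT DSS libraries had 6.56, 7.35 and 7.25 CPM, against 1.37 and 2.02 CPM. Cyp4f18 rose by 1.83 ± 0.54 (SE) log2 units in KO, 2.11 ± 0.52 in VAA and 2.05 ± 0.52 in WT (edgeR adjusted p = 0.048, 0.011 and 0.012). The KO call was lost in 9 of 15 fits without a library, lowest value 1.22 (edgeR adjusted p = 0.32) without KO untreated replicate 1. VAA untreated replicate 1 left out gave 1.53 (edgeR adjusted p = 0.13) in VAA, and WT untreated replicate 1 or 2 left out gave 1.81 and 2.36 (adjusted p = 0.11 and 0.054) in WT. On average it rose by 2.00 ± 0.30 and that call held in every such fit.

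Neutrophil markers moved in the same direction as Cyp4f18. Of the 10, 9 rose under DSS averaged over genotypes, where 22.5% of all genes did. Cyp4f18 rose by similar amounts in each genotype. The median log2 fold change of the neutrophil markers was 1.29 in KO, 6.64 in VAA and 5.39 in WT. Their summed level was 113 to 155 CPM in KO DSS, 395 to 789 in VAA DSS and 342 to 434 in WT DSS libraries. Untreated libraries had 79.8 to 119 CPM of these markers. Their part in the rise of Cyp4f18 was not tested.

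Cyp4f13, in contrast, fell in all genotypes. It had 21.2, 18.8 and 20.1 CPM in KO DSS libraries against 42.1 and 41.9, 15, 17.3 and 21.4 CPM in VAA DSS libraries against 34.5 and 34, and 13.5, 11.5 and 20.2 CPM in WT DSS libraries against 35.9 and 35.9. The log2 fold changes were -1.07 ± 0.20 (SE), -0.94 ± 0.20 and -1.25 ± 0.20, and the KO value missed at edgeR adjusted p = 0.051 without KO untreated replicate 1. Cyp4f40 rose on average by 0.68 ± 0.19 log2 units, with means of 60, 42.2 and 52.3 CPM under DSS in KO, VAA and WT, against 36.4, 30.8 and 28.9 CPM untreated. VAA DSS replicate 3, at 20.5 CPM, lay below the untreated libraries of its genotype. Cyp4v3, a fatty acid hydroxylase related to human CYP4V2, averaged 9.93, 10.7 and 9.08 CPM under DSS in KO, VAA and WT, against 18.8, 16.6 and 17.9 CPM, and fell on average by 0.84 ± 0.13 log2 units.

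A few other members passed in at least 1 DSS comparison. Both Cyp4f16 and Cyp4f17 were called lower in the averaged comparison. Their averaged log2 fold changes were -0.66 to -0.49 and -1.08 to -0.82 with 1 library left out. Cyp4f16 averaged 39.3, 25.2 and 26.9 CPM under DSS in KO, VAA and WT, against 51.8, 45 and 38.4 CPM untreated, and fell by 0.84 ± 0.17 (SE) log2 units in VAA and 0.52 ± 0.17 in WT, the WT call being lost in 8 of 15 fits without a library. Cyp4f17 averaged 2.27, 3.14 and 1.98 CPM under DSS, against 4.1, 4.77 and 4.84 CPM, and fell in WT by 1.28 ± 0.40, a call lost in 5 of 15 fits. Cyp2j5, an epoxygenase of mouse kidney, had 2.04, 1.99 and 1.59 CPM in WT DSS libraries against 3.07 and 6.93, and the WT change of -1.42 ± 0.35 was -0.72 without WT untreated replicate 2 (edgeR adjusted p = 0.22). Cyp4a30b, a relative of fatty acid omega-hydroxylases, reached at most 1.26 CPM, with an averaged change of -1.52 ± 0.44, a call lost without WT untreated replicate 1 (highest edgeR adjusted p = 0.077).

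Cyp51 encodes the lanosterol demethylase of cholesterol synthesis. It had 188, 224 and 206 CPM in KO DSS libraries, against 83.3 and 99.9 CPM untreated. Under DSS the VAA libraries had 129, 189 and 59.4 CPM, against 85.5 and 96.5 CPM, and WT DSS libraries had 143, 130 and 176 CPM, against 95.2 and 106 CPM. KO and WT groups were apart, and VAA DSS replicate 3 lay below its untreated libraries. The log2 fold change was 1.17 ± 0.33 (SE) in KO (edgeR adjusted p = 0.04), 0.47 ± 0.32 in VAA and 0.57 ± 0.32 in WT, of which the KO change passed. That KO call was lost in 11 of 15 fits without a library, at values of 1.04 to 1.30 and an adjusted p of up to 0.24. Averaged over genotypes Cyp51 rose by 0.74 ± 0.19. Of 21 other genes of sterol synthesis, written from general knowledge, 15 rose and 1 fell on average with a median of 0.77. In KO 11 rose and 0 fell. All genes tested gave 22.5% higher and 20% lower on average, and 5.59% and 5.06% in KO. Mvd and Fdps, enzymes of the mevalonate path, rose by 1.18 ± 0.15 and 1.20 ± 0.17.

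Other sterol P450 genes went different ways. Cyp7b1, an oxysterol hydroxylase, had 2.33, 1.09 and 0.817 CPM in KO DSS libraries against 0.452 and 0.571 untreated. VAA libraries under DSS held 3.19, 4.22 and 7.49 CPM against 1.22 and 2.04, and WT DSS libraries 4.01, 4.06 and 3.36 CPM against 1.64 and 2.15. DSS and untreated libraries were apart in each genotype. It rose on average by 1.35 ± 0.28 (SE) log2 units and within VAA by 1.60 ± 0.46, a call lost without VAA untreated replicate 1 (1.26, edgeR adjusted p = 0.21) or 2 (2.01, adjusted p = 0.059).

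Cyp39a1, another oxysterol hydroxylase, fell by 0.81 ± 0.23 (SE) log2 units in KO, 1.13 ± 0.23 in VAA and 0.73 ± 0.23 in WT. Its averaged log2 fold change was -0.89, which passed, and -0.97 to -0.79 with 1 library left out. Its DSS libraries spanned 14.1 to 15.2, 6.53 to 12.1 and 11.1 to 14.7 CPM in KO, VAA and WT, against 20.6 to 30.2, 19.2 to 22.6 and 19.6 to 21.7 CPM untreated. The KO, VAA and WT calls were lost in 11, 1 and 4 of 15 fits without a library, at adjusted p values of up to 0.30, 0.051 and 0.17. Cyp27a1, the mitochondrial sterol hydroxylase, had 10.9, 7.66 and 14.2 CPM in WT DSS libraries against 28 and 29.7 untreated and fell by 1.40 ± 0.38 in WT, with an adjusted p of up to 0.081 when WT untreated replicate 1 or 2 or WT DSS replicate 2 was left out. VAA DSS replicate 3, at 31.3 CPM, was above the VAA untreated libraries. The averaged log2 fold change of Cyp27a1 was -0.93, which passed, and -1.14 to -0.83 with 1 library left out. Cyp7a1, the rate-limiting enzyme of bile acid synthesis in liver, had 3 to 11 counts a library and passed in 0 of 12 comparisons.

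Steroid and vitamin genes were low. Cyp11b1, which makes corticosterone, had 1.24, 1.09 and 0.52 CPM in KO DSS libraries against 0.776 and 0.927, and 1.32, 2.25 and 2.11 CPM in VAA DSS libraries against 0.715 and 0.511. WT DSS libraries had 0.875, 1.38 and 0.885 CPM against 1.23 and 0.74. It rose in VAA by 1.60 ± 0.47 (SE) log2 units (edgeR adjusted p = 0.028), and the call was lost without VAA untreated replicate 1, VAA untreated replicate 2 or VAA DSS replicate 2 (adjusted p of up to 0.17). Cyp11a1, which starts steroid synthesis, ranged from 0.925 to 2.15 CPM over the libraries and passed nowhere. Adrenal cortex markers, 3 of 8 tested, summed to 6.12 to 13.1 CPM. Cyp2r1, a vitamin D hydroxylase, averaged 2.4, 1.97 and 1.69 CPM under DSS in KO, VAA and WT, against 3.63, 3.66 and 4.65 CPM, and fell on average by 0.99 ± 0.19. Cyp26b1, which breaks down retinoic acid, ranged from 0.0715 to 4.61 CPM, with VAA untreated replicates at 0.0715 and 3.15 CPM, and its averaged change was 0.09 ± 0.59.

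Cyp2e1, the ethanol-inducible P450 of liver and fat, varied widely between replicates. It had 4.26, 13.9 and 1.93 CPM in KO DSS libraries against 3.17 and 1.64, and 1.8, 3.93 and 22.2 CPM in VAA DSS libraries against 7.8 and 1.11. WT DSS libraries had 68.7, 4.44 and 3.01 CPM against 2.46 and 1.95. The high values came from WT DSS replicate 1, VAA DSS replicate 3 and KO DSS replicate 2, and the averaged log2 fold change of 2.00 ± 0.82 (SE) did not pass (edgeR adjusted p = 0.066). Of 10 adipocyte markers, chosen after the Cyp2e1 values were seen, 9 were tested. Their summed level was 532 CPM in WT DSS replicate 1, 497 in KO DSS replicate 2 and 290 in VAA untreated replicate 1, against 82.5 to 211 CPM in the other 12. Adiponectin (Adipoq) had 310, 218 and 74 counts in those 3 libraries, 10 in VAA DSS replicate 3, and 1 to 33 in the rest. Their part in the Cyp2e1 values was not tested.

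**Figure D3:**
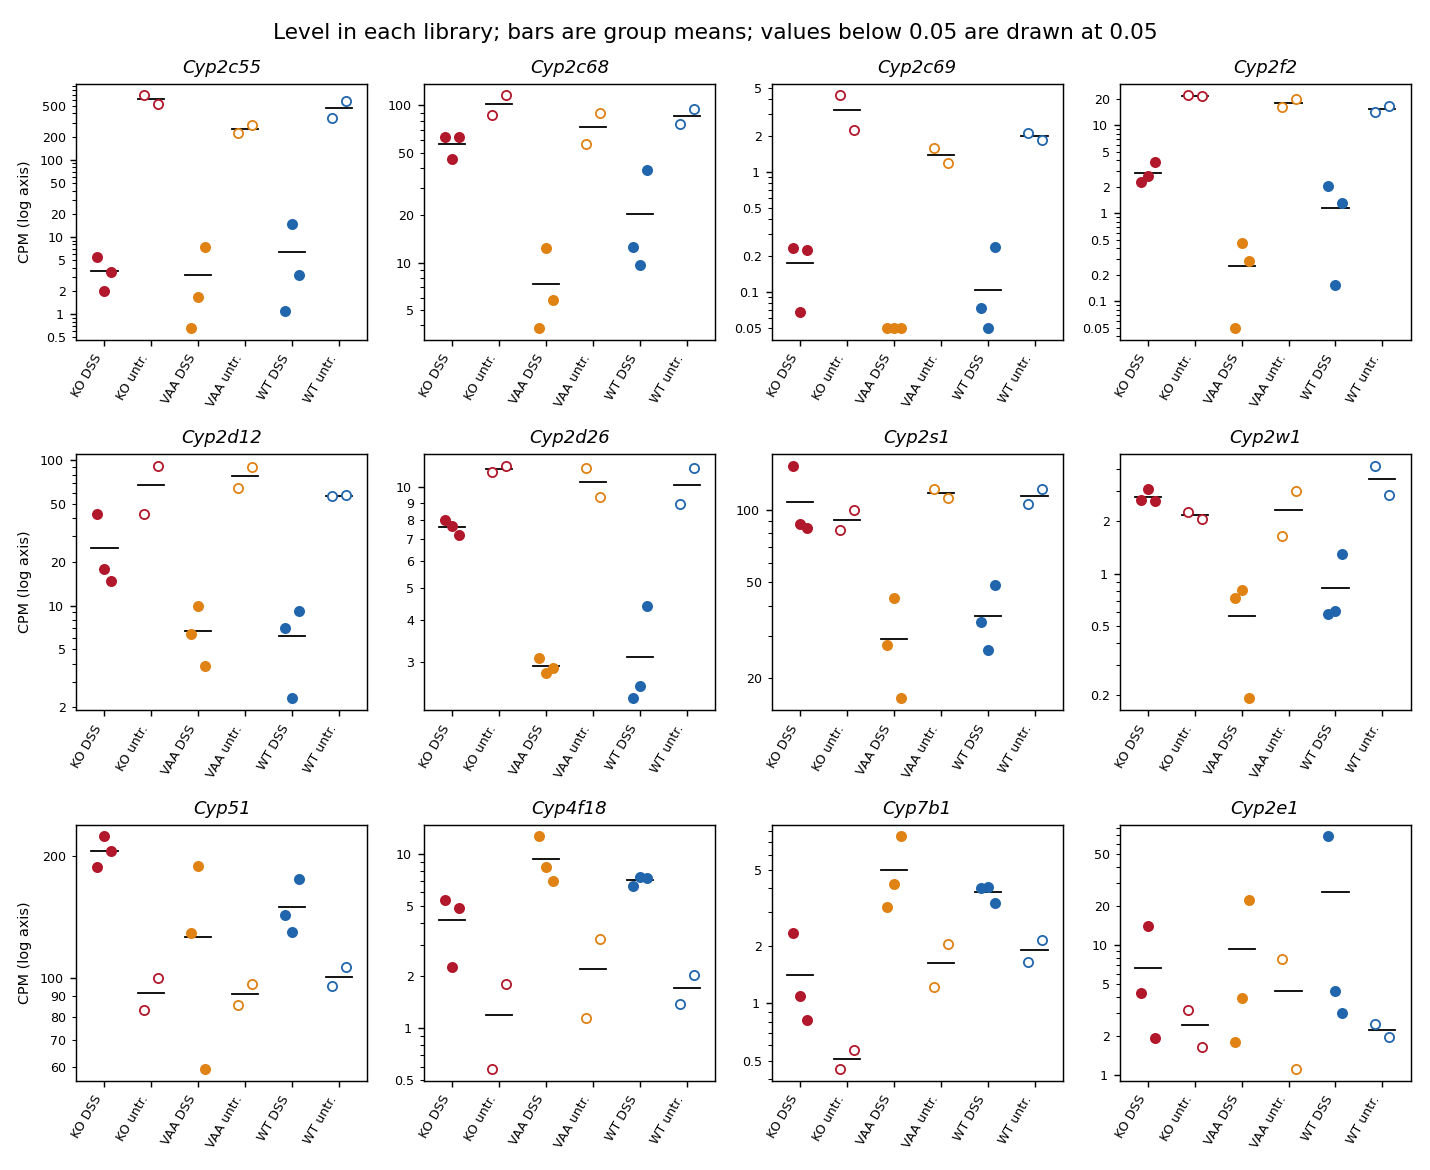
CPM of 12 members in each of 15 libraries on log axes; filled points are DSS libraries, open points untreated ones, and bars are group means, with values below 0.05 drawn at 0.05. Cyp2s1 lies at 83.8 to 153 CPM in KO DSS libraries and at 16.4 to 48.6 CPM in VAA and WT DSS libraries, and Cyp2c55 lies below 15 CPM in every DSS library.

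The genotypes were then compared within DSS colon. Between KO and WT, 6 members were higher and 0 lower, where 3.21% of all genes were higher and 2.46% lower (5.67% in either direction), and the members' median log2 fold change was 0.37. Those 6 were Cyp2d10, Cyp2d12, Cyp2d26, Cyp2d34, Cyp2s1 and Cyp2w1, each of which also fell under DSS in WT. These comparisons share the WT DSS libraries. In these 6 the KO and WT libraries did not overlap, and 18 of 52 members did not overlap in all, where 35.8% of all genes did not. Cyp2s1 was higher by 1.58 ± 0.32 (SE) log2 units, Cyp2d26 by 1.28 ± 0.23 and Cyp2d12 by 2.00 ± 0.51 (edgeR adjusted p = 0.016, 0.01 and 0.039). Cyp2w1 was higher by 1.70 ± 0.42, Cyp2d10 by 1.21 ± 0.26 and Cyp2d34 by 0.63 ± 0.17 (edgeR adjusted p = 0.035, 0.021 and 0.045). Cyp2d10 summed with Cyp2d11 averaged 38 ± 8.6 CPM in KO DSS, against 16.5 ± 3.88 CPM in WT DSS (SD, n = 3 each).

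This KO against WT count depended on single libraries. Leaving out WT DSS replicate 2 gave 0, WT DSS replicate 1 gave 1 and KO DSS replicate 1 gave 2. Leaving out KO DSS replicate 2 or WT untreated replicate 1 gave 3, and KO DSS replicate 3 or WT untreated replicate 2 gave 4. Leaving out WT DSS replicate 3 or VAA DSS replicate 3 gave 10. Without both male libraries it was 3, with Cyp2d12, Cyp2d34 and Cyp2w1 lost. The differences of the 6 called members stayed above 0 in each of the 15 fits without a library. Without WT DSS replicate 2 those of Cyp2s1, Cyp2d26 and Cyp2d12 were 1.39, 1.16 and 1.62 log2 units (edgeR adjusted p = 0.097, 0.067 and 0.17). Over the 15 fits these ranged from 1.24 to 1.85, 1.12 to 1.64 and 1.38 to 2.42.

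Between KO and VAA under DSS, 9 members were higher and 1 lower, where 6.01% of all genes were higher and 9.41% lower. The members' median was 0.29. Cyp2d10, Cyp2d12, Cyp2d26, Cyp2s1 and Cyp2w1 were higher here as well as against WT, and both comparisons use the same KO DSS libraries. Libraries of the 2 groups did not overlap for 23 of 52 members, where they did not for 28.4% of all genes. Cyp2c68 was higher by 2.94 ± 0.50 (SE) log2 units, Cyp2f2 by 3.50 ± 0.70 and Cyp2c67 by 2.48 ± 0.64 (edgeR adjusted p = 0.0031, 0.0067 and 0.02). Summed, Cyp2c40, Cyp2c67, Cyp2c68 and Cyp2c69 averaged 59.1 ± 10 CPM in KO DSS, against 7.67 ± 4.73 CPM in VAA DSS, and Cyp2d10 with Cyp2d11 averaged 38 ± 8.6 CPM against 19.9 ± 5.71 CPM (SD, n = 3 each). Cyp2s1 differed by 1.89 ± 0.32, Cyp2d26 by 1.39 ± 0.23, Cyp2w1 by 2.18 ± 0.44 and Cyp4f16 by 0.64 ± 0.15. Cyp7b1 was the lower member, at -1.80 ± 0.41 (edgeR adjusted p = 0.011), and at -1.64 with adjusted p = 0.053 without KO DSS replicate 2. It also had lower values in KO untreated libraries, at 0.452 and 0.571 CPM, against 1.22 and 2.04 CPM in VAA untreated libraries. That untreated difference of -1.65 log2 units did not pass. The Cyp2c67, Cyp2d10 and Cyp2d12 calls were each lost in 3 of 15 fits without a library (edgeR adjusted p of up to 0.068, 0.12 and 0.13). Those of Cyp2c67 were without VAA DSS replicate 1 or KO DSS replicate 1 or 2, those of Cyp2d10 without VAA DSS replicate 3 or KO DSS replicate 1 or 2, and those of Cyp2d12 without VAA DSS replicate 1 or 3 or KO DSS replicate 1. Cyp4f16 was lost without KO DSS replicate 1 (edgeR adjusted p = 0.067). The count of 10 was 6 without KO DSS replicate 1.

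Between VAA and WT under DSS, 0 members passed edgeR's test and 0 passed that of DESeq2, where 0.00572% of all genes passed. At an unadjusted p under 0.05 there were 4 (7.69%, against 16.3% of all genes): Cyp2c68, Cyp2c69 and Cyp2f2 with lower values in VAA (6.05% of all genes) and Cyp11b1 with a higher one (10.3%). Without VAA DSS replicate 2, Cyp2c68 passed as the only member.

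**Figure D4:**
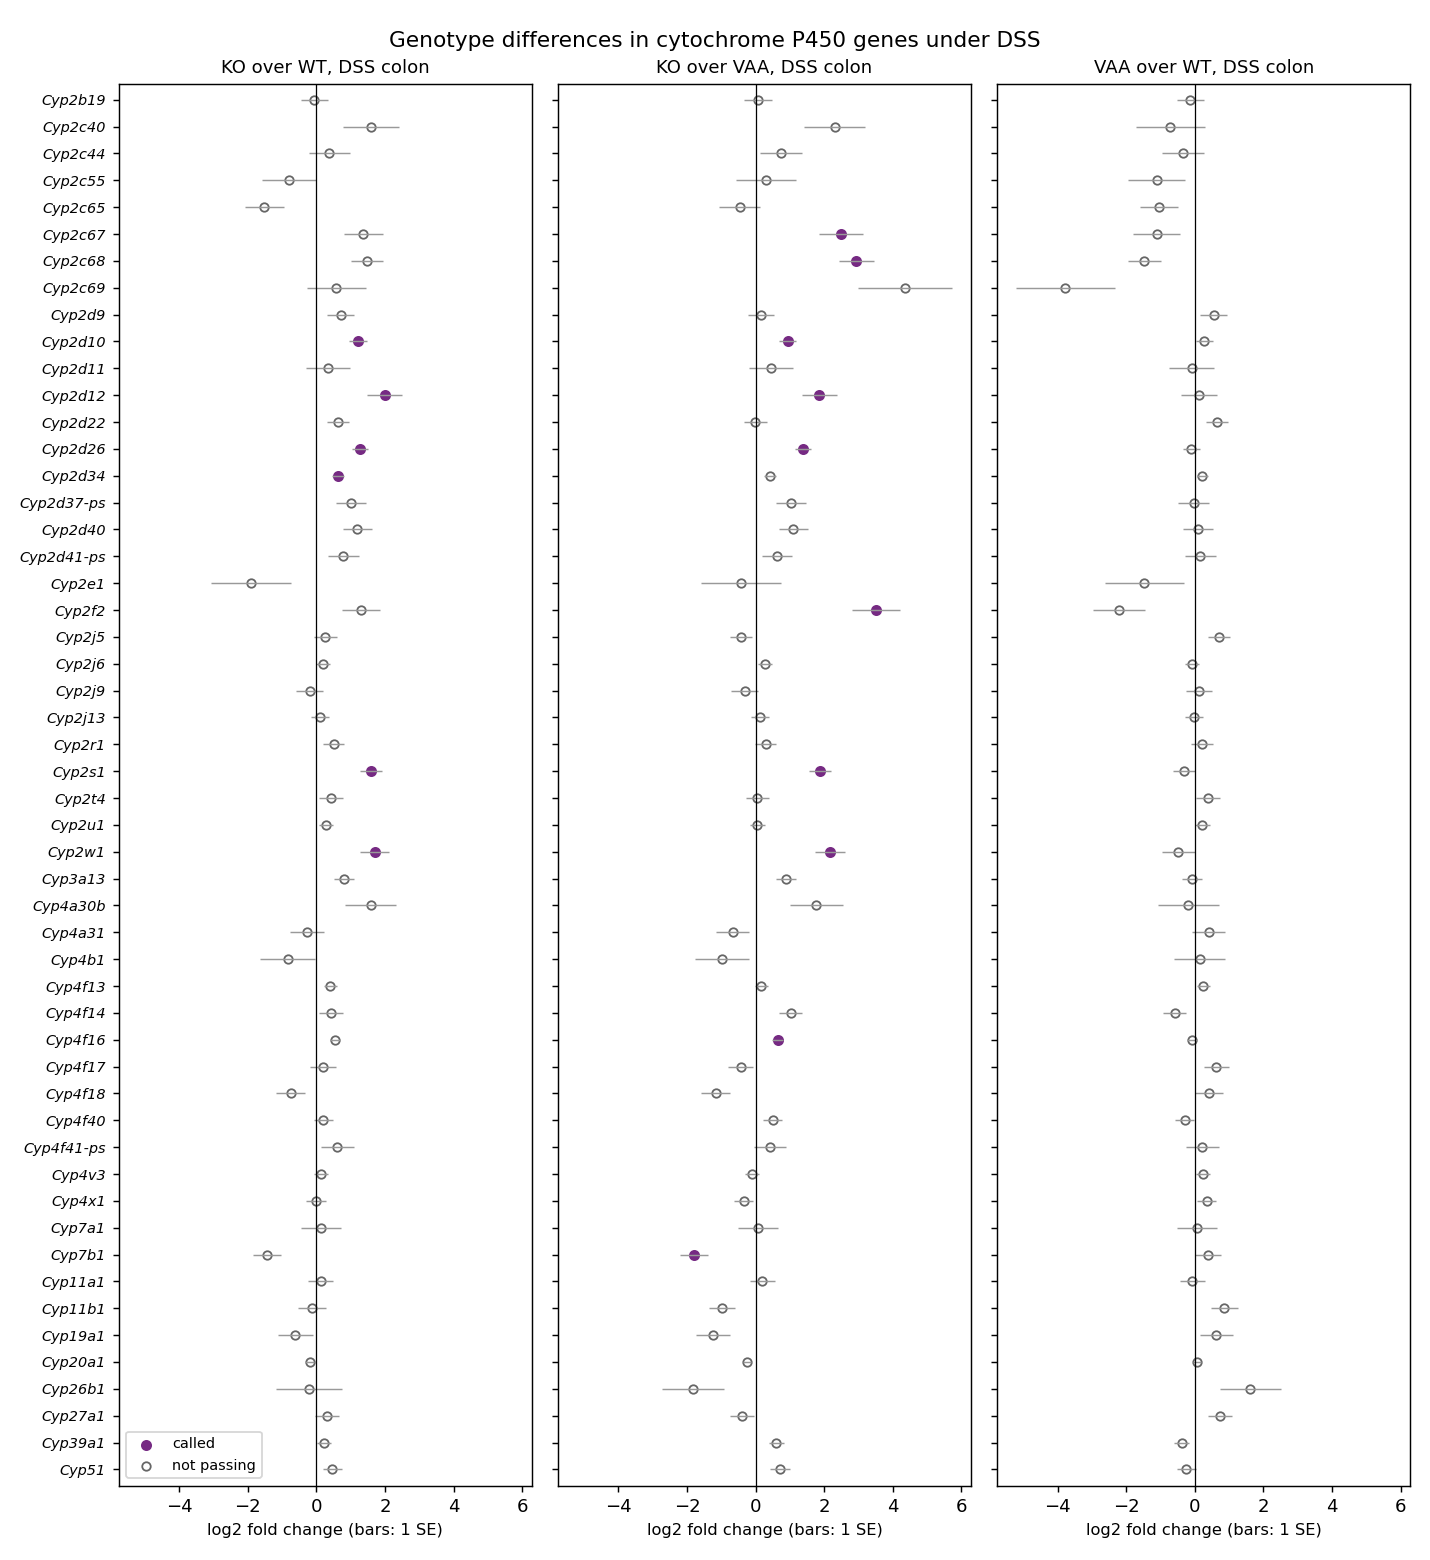
Log2 fold change between genotypes under DSS for the 52 members, with bars of 1 SE of the fit; filled points passed the adjusted test. In the panels of KO over WT and KO over VAA the passing points lie right of 0, apart from Cyp7b1 against VAA, and the panel of VAA over WT has none.

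Other genes moved between KO and WT DSS colon too, 3.21% of all genes being higher in KO and 2.46% lower. Goblet cell markers were higher in KO for 5 of 10 and lower for 0, and their summed level was 12600 to 15300 CPM in KO DSS, against 5950 to 8430 in WT DSS libraries. Colonocyte markers were higher for 3 of 18 and lower for 1, at 13800 to 17300 CPM in KO DSS, against 11200 to 12300 in WT DSS. Neutrophil markers were lower in KO for 7 of 10, at 113 to 155 CPM in KO DSS, against 342 to 434 in WT DSS. Goblet cell sums were also higher in KO untreated libraries, at 20700 CPM, against 13200 to 14300 in WT untreated libraries. Between these untreated groups 0 of the 10 goblet cell markers passed.

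Between KO and VAA DSS colon, goblet cell markers were higher in KO for 8 of 10 and colonocyte markers for 6 of 18, with 0 lower in either list. Their summed levels were 12600 to 15300 and 13800 to 17300 CPM in KO DSS, against 5280 to 7080 and 10400 to 12200 CPM in VAA DSS. Fibroblast and neutrophil markers were lower in KO for 8 of 10 each, endothelial markers for 6 of 10 and macrophage markers for 4 of 10, with 0 higher. Fibroblast markers summed to 841 to 1250 CPM in KO DSS, against 1350 to 3460 in VAA DSS, and neutrophil markers to 113 to 155, against 395 to 789. Endothelial markers summed to 62.9 to 81.3 CPM in KO DSS, against 96 to 341 in VAA DSS. Of all genes, 6.01% were higher in KO than in VAA under DSS and 9.41% lower. Goblet cell sums were also higher in KO untreated libraries, at 20700 CPM, against 16200 to 16500 in VAA untreated libraries. Between these untreated groups 0 of the 10 goblet cell markers passed. The part of the marker shifts in the members' differences from WT or VAA was not tested.

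The DSS effects of KO and of VAA were each compared with that of WT by an interaction term. By edgeR 0 members passed for KO against WT and 0 for VAA against WT, and 0% of all genes did. At an unadjusted p under 0.05 there were 9 members in KO, 8 of them with a less negative or higher DSS effect in KO than in WT, and 4 in VAA. Of all genes, 9.93% were under that p in KO, 5.28% with a higher effect in KO, and 7.2% in VAA. Cyp2s1 differed by 1.90 ± 0.50 (SE) log2 units, Cyp2w1 by 2.39 ± 0.64 and Cyp2d26 by 1.13 ± 0.35 (edgeR adjusted p = 0.28, 0.28 and 0.32). DESeq2 called 1 member, Cyp2s1, in KO (adjusted p = 0.029) and 0 in VAA. That a member fell in WT and did not pass in KO is therefore not shown to be a difference, except by that tool for Cyp2s1.

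Untreated, 0 members passed in any of the 3 genotype pairs by edgeR or DESeq2, and 0% of all genes did by edgeR. At an unadjusted p under 0.05 there were 2 in KO against WT, 2 in VAA against WT and 3 in KO against VAA (3.85%, 3.85% and 5.77%, against 2.01%, 1.33% and 2.29% of all genes). Both in VAA against WT had lower values in VAA, where 0.664% of all genes did. Cyp7b1 had the smallest p, with 0.452 and 0.571 CPM in KO untreated libraries, against 1.64 and 2.15 in WT untreated libraries, a difference of -1.88 ± 0.57 (SE) log2 units.

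In all, 18 members passed in none of the 12 comparisons: Cyp11a1, Cyp19a1, Cyp20a1, Cyp26b1, Cyp2b19, Cyp2d9, Cyp2e1, Cyp2j13, Cyp2j6, Cyp2j9, Cyp2t4, Cyp2u1, Cyp4a31, Cyp4b1, Cyp4f14, Cyp4f41-ps, Cyp4x1 and Cyp7a1. Among the better expressed, Cyp2j6 ranged from 22.1 to 41.5 CPM and Cyp20a1, an orphan P450, from 17.1 to 24.4 CPM. The averaged DSS changes were 0.24 ± 0.13 and 0.03 ± 0.08 (SE) log2 units. Cyp4f14, which inactivates leukotrienes in mouse, had 40.5, 35.9 and 48.6 CPM in KO DSS libraries, 29.1, 24 and 7.87 in VAA DSS and 28.4, 24 and 40.2 in WT DSS, against 20 to 33.2 CPM untreated, with VAA DSS replicate 3 lowest.

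The P450 symbols outside the log2 CPM table never exceeded 15 counts in a library, and 53 of 67 never exceeded 5. Cyp24a1, the vitamin D breakdown enzyme, had 0 counts in all 15 libraries, which allows up to 0.173 to 0.288 CPM a library (3 counts, counting error only). The aryl hydrocarbon receptor targets Cyp1a1 and Cyp1b1 had 0 to 4 and 0 to 10 counts a library. Cyp1b1 summed to 4, 23 and 14 counts over the DSS libraries of KO, VAA and WT, against 3, 1 and 0 untreated. Cyp27b1, which activates vitamin D, had 1 to 10 counts a library. Cyp2a12 and Cyp2a5, named after their values were seen, summed to 1, 0 and 0 and to 1, 1 and 0 counts under DSS, against 15, 9 and 15 and 13, 6 and 16 untreated. These genes were not tested.

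Genes that work with P450 enzymes were counted from lists written from general knowledge. Of 22 genes of electron supply and heme, 6 rose and 3 fell under DSS on average, with a median of 0.01. In that comparison 22.5% of all genes tested rose and 20% fell, and these counts are not far from those shares. Alas1, the first enzyme of heme synthesis, rose by 1.10 ± 0.09 (SE) log2 units and Hmox1, which degrades heme, by 2.44 ± 0.19. Of 19 tested receptors that sense lipids and xenobiotics, 2 rose and 10 fell with a median of -0.32. The vitamin D receptor gene Vdr fell by 1.26 ± 0.11 and Nr1i2, the pregnane X receptor gene that drives Cyp2c and Cyp3a genes in liver, by 0.60 ± 0.07. Under DSS, Vdr and Nr1i2 were also higher in KO than in WT, by 1.21 ± 0.17 and 0.44 ± 0.12 (edgeR adjusted p = 0.0034 and 0.042). Nr1h4, the bile acid receptor gene, rose by 0.80 ± 0.10 on average.

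Of 20 eicosanoid enzymes, 4 rose and 6 fell on average, with a median of -0.04. All genes tested gave 22.5% higher and 20% lower in this averaged comparison. Alox5ap, the leukotriene helper protein, rose by 1.85 ± 0.19 (SE) log2 units and Hpgd, which degrades prostaglandins, fell by 1.07 ± 0.14. Of 15 tested retinoic acid genes 5 rose and 4 fell, and Dhrs9, a retinol dehydrogenase, rose by 3.39 ± 0.13. Of 16 tested genes of steroid and bile acid handling 4 rose and 6 fell: Slc51b, a bile acid exporter subunit, rose by 2.49 ± 0.15 and Hsd3b3, a steroid dehydrogenase, fell by 3.17 ± 0.25. Of 8 tested genes of a vitamin D list 2 rose and 5 fell, Slc30a10 by 6.93 ± 0.27. That list also holds the receptor genes Vdr and Rxra. Its genes Camp and Cd14 also stand among the neutrophil and macrophage markers.

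Marker lists of cell types were counted in the same averaged comparison, where 22.5% of all genes rose and 20% fell. Averaged over genotypes, 8 of 18 colonocyte markers fell and 2 rose with a median of -0.02, and 7 of 10 goblet cell markers fell and 3 rose with a median of -0.85. All 10 smooth muscle markers fell. Among fibroblast markers 2 fell and 1 rose, among macrophage markers 8 rose and 1 fell, among T and B cell markers 4 rose and 1 fell, and among endothelial markers 1 fell. Of the tested hepatocyte markers 3 fell and 2 rose, and of 5 tested pancreatic acinar markers 1 fell. The fibroblast, endothelial and acinar counts are no higher than those shares of all genes. The part of the marker shifts in the members' changes was not tested.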

How the data were processed

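Colon RNA of 15 mouse samples was sequenced as paired reads with an Illumina TruSeq total RNA kit, per the labels' protocols. Estimated counts by gene symbol and a table of log2 CPM are the values as deposited, and the submitters' processing notes name kallisto 0.46 and mm10. The deposited log2 values match edgeR's log2 CPM of the counts with a prior count of 2 within 0.018, and the estimated counts as deposited were whole numbers. Strand handling is not stated in the labels.

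Groups followed the labels. The counts of 32544 symbols were filtered with filterByExpr, scaled by TMM and fitted with edgeR 4.0.16 (R 4.3.3) as 6 group means, leaving 17477 genes and 9 residual degrees of freedom. The quasi-likelihood test gave 12 comparisons, adjusted over all genes by Benjamini-Hochberg, and a member passed at an adjusted p under 0.05. SE is that of the fit. CPM uses TMM-scaled library sizes, and CPM per kb uses GENCODE exon length. Motifs and 31-base words were searched with Python 3.11.15 scripts, which use the RefSeq promoter table and GENCODE transcripts. The members, lists, motifs and named genes were chosen with earlier results of these data known. Values per library go to the called members with the largest averaged changes, those with the smallest p between genotypes, the extremes of each genotype and members with a known role in colon, and a few other members were named after their values were seen. Same-numbered samples were checked for pairing: 33 pairs had correlations of deviations from -0.16 to 0.31, 8 of them over 0.1, so the numbers were not used as pairs. The test was tried on simulated counts. Alternatives were DESeq2 1.42.0 (test and size factors), limma 3.58.1 on the log2 table, no filter, only the groups compared, replicate block, sex, no male libraries, and each library left out.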

Additional observations from a re-analysis of the deposited data

How the results depend on the processing

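None of the 102 called gene results changed direction under the alternatives run. Within WT under DSS the count of 25 was 16 with sex as a covariate, 14 without the male libraries and 13 to 31 with 1 library left out. Within VAA the count of 19 was 11 with only the groups compared and 12 to 26 with 1 library left out. Within KO the count of 10 was 16 with only the groups compared, 4 without the male libraries and 5 to 16 with 1 library left out. Under DSS, KO against WT gave 6, with 10 for only the groups compared, 3 without the male libraries and 0 to 10 with 1 library left out. KO against VAA gave 10, with 3 for only the groups compared and 6 to 14 with 1 library left out, and VAA against WT gave 0, with 0 to 1. For the KO interaction DESeq2 called 1 member. The cause of these shifts was not tested. Without the male libraries KO and WT kept 1 untreated library each. With a replicate block the counts were 24 in WT, 21 in VAA, 9 in KO, 32 averaged, 5 for KO against WT and 11 for KO against VAA, and 93 of 102 called gene results passed. Of those 102, 57 passed in every fit without a library. Losses were 1 with DESeq2 size factors, 1 with DESeq2's test, 3 with limma, 2 without the filter, 17 with sex as a covariate, 26 without the male libraries, and 17 of 70 with only the groups compared, which cannot be run for the averaged effect. The limma fit on log2 CPM put the median log2 fold change of all genes at -0.131 for DSS in KO, against 0.00311 with edgeR. Members under about 1 CPM rest on few counts, so small differences in them were not detectable.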
